A study of Mus musculus with 292 samples.

Results

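Mitochondrial ribosomal protein genes are described here across the brains of 292 F2 mice. The genes were chosen by name: every gene whose annotated symbol begins with Mrpl or Mrps followed by a digit. The arrays measured 30 such genes out of 10835 named genes, 20 of the large subunit (Mrpl) and 10 of the small subunit (Mrps), with 36 probes out of 23549 used. RefSeq's mouse genes (assembly GRCm38.p6) include 78 protein-coding ones with such symbols, and the other 48 were not analysed here. In 26 of the genes 1 probe was present. In the other 4 the probe with the largest standard deviation (SD) across mice stood for the gene. No value of any of the genes was missing, and all 30 passed the filter on missing values.

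C57BL/6J and C3H/HeJ, both inbred, were the parental strains, each used as dam and as sire, and their F1 offspring were intercrossed. Chow (4% fat) was fed up to week 8. A Western diet, of which 42% was fat and 0.15% cholesterol, replaced it for 12 weeks, and brains were taken at 20 weeks once food had been withheld for 12 h. Every brain was hybridised once, labelled with Cy3, against a pool labelled with Cy5 that held an equal portion of each sample. All mice formed 1 group, since neither sex nor cross direction was given per mouse in the sources used here. Each value was read as the log10 of mouse over pool. Neither the log base nor the direction is stated in the labels. If the direction were the reverse, each "higher" below would read "lower", and no correlation would change. Ratios carry no level, so brain identity could not be checked from the level of marker genes, and genes are not compared by abundance.

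Mitochondria keep a ribosome of their own, which makes the few respiratory chain proteins that mitochondrial DNA encodes. All of its proteins are encoded in the nucleus, made in the cytosol and imported. Some descend from proteins of bacterial ribosomes, while others have no bacterial counterpart and were added in the mitochondrial lineage. In brain, whose neurons depend heavily on respiration, loss of mitochondrial translation is known for severe disease. As further background, an F2 mouse can carry any of the 3 genotypes at a locus, and genes that lie near each other on a chromosome are inherited together.

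The arrays fell into 3 sets by the probes they lacked, called array sets here. Set C held 141 arrays of mice numbered 213 to 362, and lacked no probe altogether. Set B held 77 arrays (54 to 212) with 17 probes missing on each, and set A held 74 arrays (51 to 196) with 19 missing. A spelling difference in the description text splits the arrays into form 2, which is exactly set B, and form 1, which is sets C and A. Across its probes, the median array had an SD of 0.071 in set C, 0.0628 in set B and 0.0623 in set A. The first principal component over all probes held 15.2% of the variance, and 54.4% of it lay between the array sets. Each mouse has 1 array and no technical repeat, and the precision is set by how many arrays there are.

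The genes varied little between mice. Their SDs had a median of 0.0449, which corresponds to 1.11-fold, against 0.0513, or 1.13-fold, over all named genes. Only 7 of the 30 lay above the median of named genes, and 4 lay below its 10th percentile. These SDs are given as a description, because the rule chose probes by their SD. Within set C the median SD was 0.0355, against 0.0433 for named genes. It was 0.0416 against 0.0504 in set B and 0.0407 against 0.048 in set A.

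The widest spread belonged to Mrpl27, whose protein lies near the peptidyl transferase centre in bacteria. It ran from -0.258 through a median of 0.0375 to 0.221, with an SD of 0.107 (n = 292), and the span from its 5th to its 95th percentile was 2.3-fold. Mrpl48, a large-subunit protein without a bacterial counterpart, ran from -0.243 through 0.0367 to 0.245, with an SD of 0.093. Mrpl12, the stalk protein that docks translation factors, ran from -0.22 through -0.0496 to 0.212, with an SD of 0.0759. These genes stood at the 93.1, 89.4 and 80.4 percentiles of the SDs of named genes, in that order. For Mrpl27 and Mrpl48 these places rest on the probe chosen for its large SD. Their other probes had SDs of 0.0734 and 0.0377 for Mrpl27 and of 0.061 and 0.0594 for Mrpl48. Mrps26, a small-subunit protein without a bacterial counterpart, had an SD of 0.0755 and ran from -0.209 through -0.011 to 0.186.

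Mrpl39, which is related to threonyl-tRNA synthetases, had an SD of 0.0667. The next 5 were Mrpl36 (SD 0.0531), Mrpl34 (SD 0.0523), Mrps9 (SD 0.051), Mrps34 (SD 0.0499) and Mrps12 (SD 0.0498). Mrps12 is the counterpart of the bacterial decoding-site protein S12. At the steady end, Mrpl32 had an SD of 0.0241, Mrpl46 of 0.0244, Mrpl16 of 0.026, Mrps35 of 0.0288 and Mrpl18 of 0.0301. For Mrpl32, whose protein is matured by a mitochondrial inner membrane protease, that is 1.06-fold. The 5th to 95th percentile span of Mrpl32 was 1.19-fold.

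The array sets separated the genes into some that were high in set C and some that were low there. Set C holds mice numbered 213 to 362, while sets B and A end at 212 and 196. Array processing and differences between the mice therefore cannot be told apart in these contrasts. In set C minus set A, limma called 21 of the 30 at an adjusted p under 0.05, of which 10 were higher and 11 lower. Of all probes 61.7% were called in that contrast (28.2% higher, 33.4% lower), so the count is near the background. In set C minus set B, 23 were called, 12 higher and 11 lower, against 59.7% of all probes (27.0% higher, 32.7% lower). The 2 contrasts share the arrays of set C. In set B minus set A no gene was called, and 1.30% of all probes were. The median difference over the 30 genes was -0.00561 in C minus A and -0.00479 in C minus B, beside -0.00159 and -0.00221 over all probes.

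Mrpl39 showed the largest difference in set C. In set C its values ran from 0.00491 through a median of 0.105 to 0.184. In set B they ran from -0.104 through 0.00625 to 0.0991, and in set A from -0.11 through -0.00553 to 0.0983. The sets overlapped, but the median of set C lay above the highest mouse of sets B and A. Its mean was 0.105 ± 0.0336 in set C, -1.32e-05 ± 0.0452 in set B and -0.00329 ± 0.0463 in set A (SD; n = 141, 77 and 74). The difference C minus A was 0.108 (SE 0.00579; 1.28-fold; limma, adjusted p = 7.81e-49). Mrpl39 was the only one of the genes that passed a 1.2-fold threshold besides the test, beside 7.34% of all probes in C minus A and 6.65% in C minus B.

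**Figure D1:**
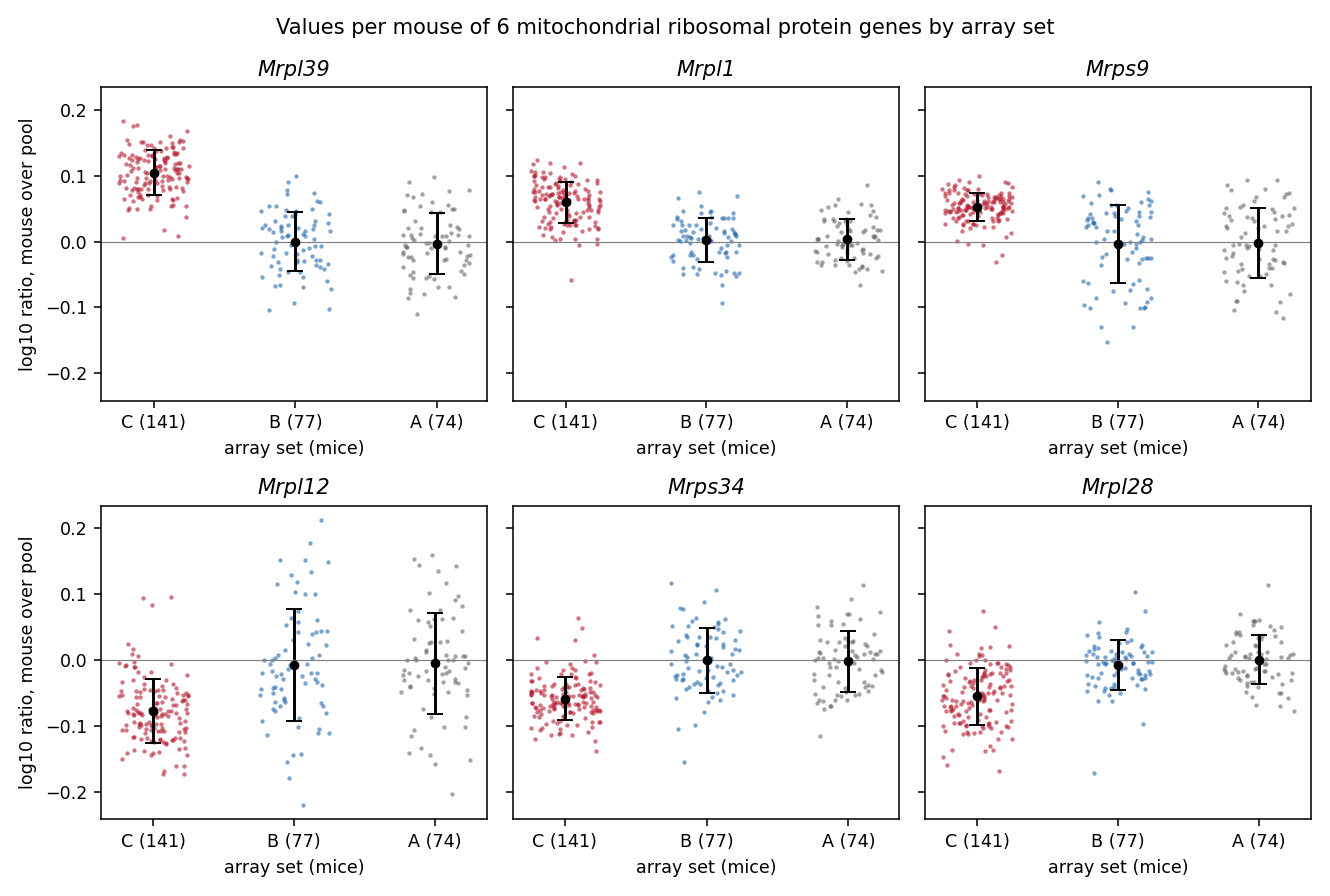
Values per mouse of 6 genes on a log10 ratio axis (mouse over pool), in array sets C, B and A; each point is 1 mouse, and the black point and bar are the mean and SD. Mrpl39, Mrpl1 and Mrps9 sit higher in set C, with means of 0.105, 0.0598 and 0.0522, while Mrpl12, Mrps34 and Mrpl28 sit lower there, with means of -0.0771, -0.0584 and -0.0548, and every gene's sets overlap.

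Further genes higher in set C were Mrpl48, Mrpl1, Mrpl27 and Mrps9. Mrpl48 averaged 0.0681 in set C, -0.00756 in set B and -0.011 in set A, and C minus A was 0.079 (SE 0.0121, adjusted p = 1.55e-09). Mrpl1, counterpart of the protein of the bacterial L1 stalk, averaged 0.0598, 0.00266 and 0.00351 in sets C, B and A. Its C minus A difference was 0.0563 (SE 0.00459, adjusted p = 8.85e-27). The means of Mrpl27 were 0.042, -0.0112 and -0.0132 in the same order, and its C minus A difference was 0.0552 (SE 0.0148, adjusted p = 0.000542). That direction depends on the probe, since the third probe of Mrpl27 averaged -0.0194 in set C, 0.00876 in set B and -0.000956 in set A, while the second averaged 0.0483, -0.0023 and -0.00619. Mrps9, a small-subunit protein with a bacterial counterpart, averaged 0.0522, -0.00379 and -0.00166. Its spread was also narrower in set C, with an SD of 0.0216, against 0.0591 in set B and 0.0532 in set A. An SD lower in set C than in both other sets was common, in 18 of the 30 genes and 57.2% of named genes.

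Lower in set C were Mrpl12, Mrpl34, Mrps34, Mrpl28 and Mrps5. In set C Mrpl12 ran from -0.173 through -0.0803 to 0.0959. It ran from -0.22 through -0.0189 to 0.212 in set B and from -0.203 through -0.00769 to 0.16 in set A. The sets overlapped over most of their range. Its C minus A difference was -0.0722 (SE 0.00963; 1.18-fold lower in set C; adjusted p = 5.11e-12). The differences C minus A of the others were -0.0603 for Mrpl34, -0.0564 for Mrps34, -0.0557 for Mrpl28 and -0.0545 for Mrps5, with adjusted p-values from limma between 2.17e-18 and 1.89e-17. Their differences C minus B were -0.0481, -0.0579, -0.0474 and -0.0473 in the same order.

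**Figure D2:**
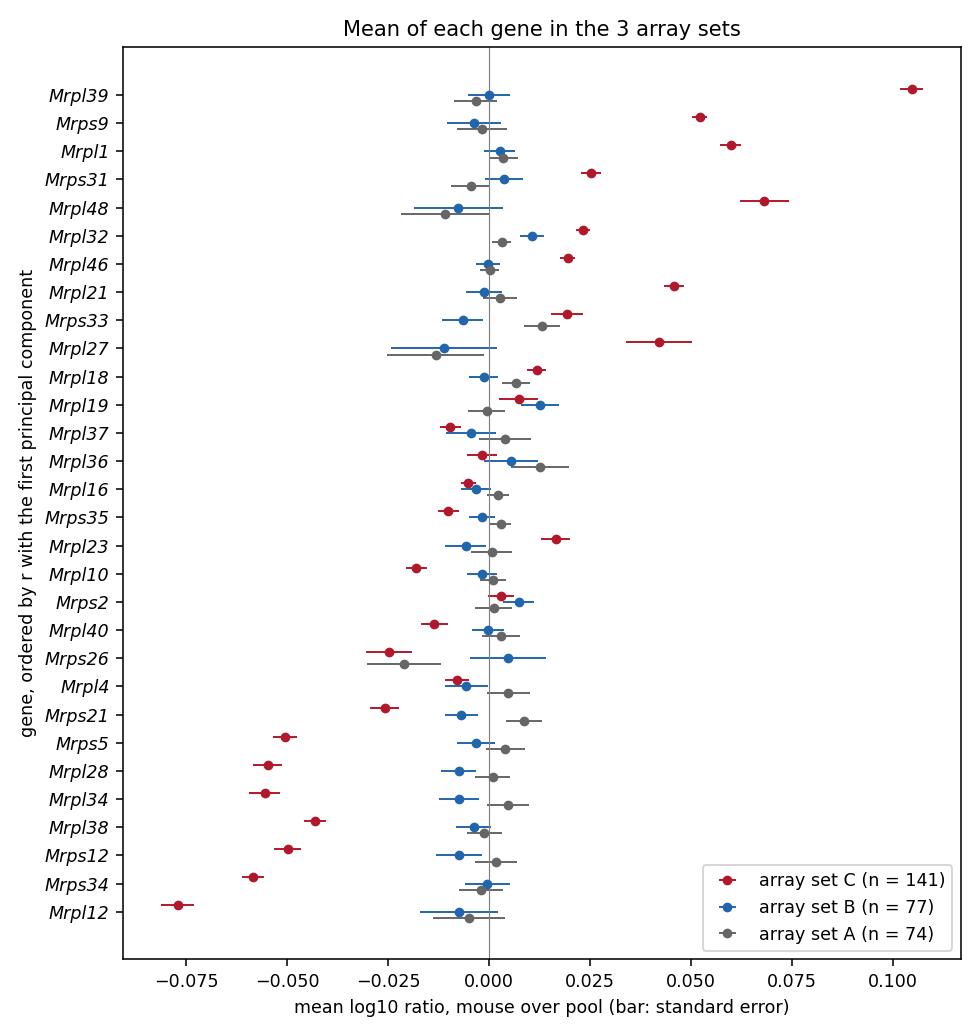
Mean log10 ratio (mouse over pool, with its standard error) of each of the 30 genes in array set C (n = 141), set B (n = 77) and set A (n = 74), ordered from top to bottom by r with the first principal component. The means of sets B and A lie between -0.021 and 0.0131, and those of set C run from -0.0771 for Mrpl12 to 0.105 for Mrpl39.

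The genes were also counted by bacterial ancestry. Of the 19 genes with a bacterial counterpart, 6 were higher and 7 lower in C minus A. Of the 11 without one, 4 were higher and 4 lower. Both lie near the shares of all probes called, 28.2% higher and 33.4% lower, and nothing about ancestry is read from them. The median SD was 0.0449 in each class.

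Cell type markers were counted in the same contrast, C minus A, in which 28.2% of all probes were higher and 33.4% lower. Of 7 measured oligodendrocyte markers 1 was higher and 5 lower (median -0.0366), and of 4 neuron markers 2 were higher and 0 lower (median 0.0353). Endothelial markers gave 1 higher and 4 lower of 6, microglial markers 1 and 4 of 7 and astrocyte markers 1 and 3 of 6. Red cell markers gave 0 higher and 2 lower of 4, choroid plexus markers 1 and 1 of 5, and pituitary markers 0 and 0 of 4. Their part in the differences of the ribosomal genes was not tested. In bulk tissue, fewer cells of a type and less RNA per cell cannot be told apart.

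Against the pool, 25 of the 30 genes were called, 13 higher and 12 lower, beside 68.4% of all probes (36.9% higher, 31.5% lower). All 25 stayed under 1.2-fold, a size that 0.586% of all probes passed along with the test. The highest means were 0.0497 for Mrpl39, 0.0305 for Mrpl1, 0.0281 for Mrpl48, 0.0238 for Mrps9 and 0.0225 for Mrpl21 (n = 292). The lowest were -0.0404 for Mrpl12, -0.0288 for Mrps34, -0.0282 for Mrpl28, -0.0276 for Mrpl34 and -0.0256 for Mrps12. Adjusted p-values of these 10 ran from 1.13e-27 to 1.23e-06 (limma). Within set C alone 27 genes were called, 12 higher and 15 lower, beside 77.1% of all probes (38.8% higher, 38.3% lower). Within set B or set A none was called, beside 0.590% and 0.620% of all probes. Every mouse carried Cy3 and the pool Cy5, so an offset from the pool and a dye effect cannot be told apart. The calls over all mice also rest on set C, and their cause was not tested.

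The trend over mouse number and the contrast of description forms follow the same split. With the mouse number 25 genes were called, 11 rising and 14 falling, beside 62.3% of all probes (28.5% rising, 33.8% falling). With the array set as a covariate 8 were called, 2 rising and 6 falling, beside 18.0% (8.80% rising, 9.24% falling). Within set C alone 13 were called, beside 25.3%, within set B 4, beside 21.6%, and within set A 0, beside 12.8%. None reached 1.2-fold per 100 mouse numbers, beside 0.471%. The steepest slopes per 100 mouse numbers were 0.051 for Mrpl39, 0.0366 for Mrpl48, 0.0291 for Mrpl1, 0.0256 for Mrps9 and 0.0256 for Mrpl21 upward. Downward they were -0.031 for Mrpl34, -0.0296 for Mrpl12, -0.0273 for Mrpl28, -0.0272 for Mrps12 and -0.0248 for Mrps34. The slopes of Mrpl39, Mrpl48, Mrps9, Mrpl12 and Mrps34 turned sign with the set as a covariate. Form 2 minus form 1 called 18 genes, 8 higher and 10 lower, beside 45.4% (24.8% higher, 20.6% lower), and none at 1.2-fold, beside 1.94%. The lowest differences were -0.0675 for Mrpl39, -0.0484 for Mrpl48, -0.0378 for Mrpl1, -0.0374 for Mrps9 and -0.0342 for Mrpl27. The highest were 0.0448 for Mrpl12, 0.0385 for Mrps34, 0.0285 for Mrps5, 0.0283 for Mrps26 and 0.0282 for Mrpl28.

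As a group the genes did not share 1 pattern across mice. Over their 435 pairs Pearson's r had a median of 0.0095, beside -0.00143 over all pairs of named genes. The spread of r was wider than for other genes, with quartiles of -0.189 and 0.249, beside -0.145 and 0.149. In 42 pairs (9.66%) r was above 0.5, beside 3.13% of all named pairs, and in 21 (4.83%) it was below -0.5, beside 2.20%. In set C alone the counts were 30 (6.90%, beside 2.69%) and 9 (2.07%, beside 1.47%). They were 29 (6.67%, beside 2.19%) and 5 (1.15%, beside 1.2%) with array set means taken out, so opposed pairs were then no more frequent than among named genes. They were 17 (3.91%, beside 1.55%) and 2 (0.46%, beside 0.797%) with the first principal component taken out. The median was 0.034 over 190 pairs of large-subunit genes, -0.000751 over 45 pairs of small-subunit genes and 0.00633 over the 200 mixed pairs. These correlations share arrays, pool and normalization, and are given as a description over 292 mice.

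Over all mice together the most alike pair was Mrpl28 and Mrps12, with r = 0.773. It was 0.67 in set C, 0.747 in set B and 0.737 in set A, and 0.535 with the first principal component taken out. Mrpl34 and Mrps12 had r = 0.763 (0.681, 0.589 and 0.817 in sets C, B and A), and 0.51 without that component. Mrpl12 and Mrps34 had r = 0.763 (0.582, 0.727 and 0.722), but 0.155 with the first principal component taken out. The order holds only for r over all mice. Mrpl23 and Mrpl4, the fourth pair with r = 0.762, had 0.775, 0.84 and 0.82 in sets C, B and A, above these 3 pairs in each set, and 0.781 without that component. That pair is named here after its values were seen. The most opposed pair was Mrpl12 and Mrpl39, with r = -0.686 (-0.438, -0.638 and -0.671), and it was 0.314 without that component. Mrpl12 and Mrps9 had r = -0.641 and Mrps34 and Mrps9 had r = -0.639. In set C those 2 pairs were at -0.085 and -0.00256, and without that component at 0.158 and 0.0845.

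**Figure D3:**
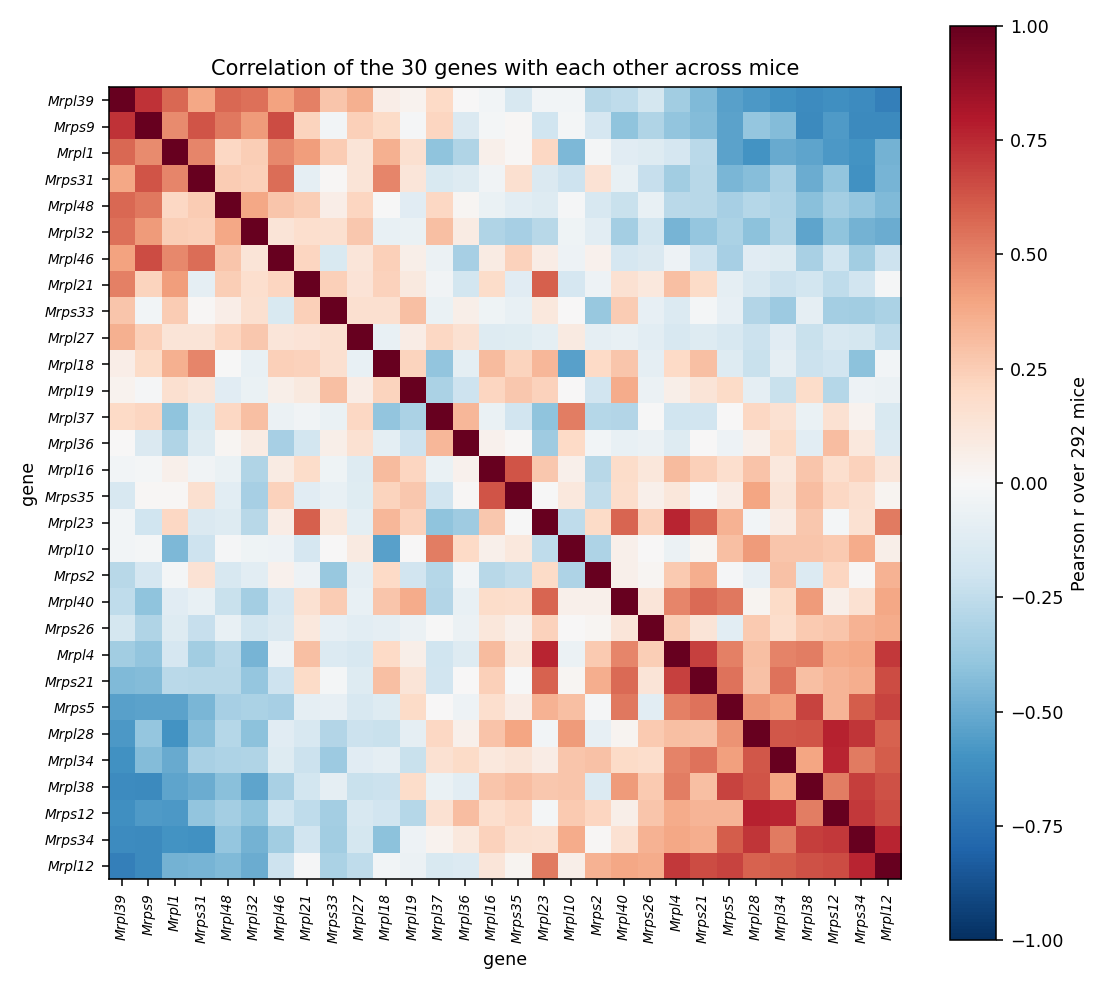
Pearson's r over 292 mice between each pair of the 30 genes, ordered by r with the first principal component; red is positive and blue negative. A block of positive r runs from Mrps5 to Mrpl12 at the lower right, a smaller one from Mrpl39 to Mrps31 at the upper left, and r between the 2 blocks is negative, down to -0.686.

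The first principal component ordered these blocks. With the component set so that its mean is higher in set C, 5 genes had r above 0.5 with it, led by Mrpl39 at 0.882 and Mrps9 at 0.799. The others were Mrpl1 at 0.648, Mrps31 at 0.573 and Mrpl48 at 0.541. There were 8 genes with r below -0.5, led by Mrpl12 at -0.862, Mrps34 at -0.835 and Mrps12 at -0.757. Of named genes, 11.7% were above 0.5 and 15.8% below -0.5.

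Each gene was also set against the mean standardised value of the other 29. Mrpl4, whose bacterial counterpart lines the exit tunnel, followed the others most closely, with r = 0.566 and Spearman's rho = 0.496. Leaving out the 2 most extreme mice on that mean gave 0.536, and it was 0.506, 0.599 and 0.584 in sets C, B and A. Mrps21 had r = 0.509 and Mrpl23, counterpart of a protein at the tunnel exit, r = 0.507. Then came Mrpl16 at 0.431, Mrpl40 at 0.426, Mrpl12 at 0.378, Mrpl34 at 0.321, Mrpl21 at 0.312, Mrpl28 at 0.294 and Mrps5 at 0.291. Neighbours in this order differ by less than the spread between the array sets.

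At the other end Mrpl32 ran against the rest, with r = -0.323 and rho = -0.267 (-0.374, -0.215 and -0.306 in sets C, B and A). The next lowest were Mrps9 at -0.211, Mrpl1 at -0.207, Mrpl39 at -0.178 and Mrps31 at -0.163. For 3 of these the sign was not stable. Mrps31 had r = 0.224 in set C, -0.285 in set B and -0.368 in set A, and 0.00978 with the first principal component taken out. Without that component Mrpl39 had r = 0.334 and Mrps9 r = 0.142. The other 12 of the 15 genes named here kept their sign in every setting run, but Mrpl1 came to -0.0101 without that component and -0.0575 in set C. In all, 20 genes had r above 0 and 10 below. With the first principal component taken out these counts were 24 and 6. No such count was made for other named genes, so nothing is read from them.

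Every probe was also fitted on 1 gene at a time with limma. In the fit on Mrpl12, 23 of the other 29 genes were called, 12 with a positive and 11 with a negative slope, beside 72.1% of all probes (42.4% positive, 29.8% negative). On Mrps12 27 were called, 15 positive and 12 negative, beside 70.8% (40.2% positive, 30.6% negative). On Mrps2, counterpart of bacterial protein S2, 18 were called, 8 positive and 10 negative, beside 69.9% (36.7% positive, 33.2% negative). On Mrps9 24 were called, 10 positive and 14 negative, beside 66.9% (28.9% positive, 38.0% negative). Nothing is read from these shares, which were not tested. With the first principal component as a covariate, the fit on Mrpl12 called 15 positive and 5 negative, beside 33.9% and 26.3% of all probes. On Mrps12 it was 10 and 6, beside 24.7% and 21.9%, on Mrps2 9 and 10, beside 36.7% and 35.2%, and on Mrps9 8 and 5, beside 17.6% and 14.9%.

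Other genes of the mitochondrial translation and respiration machinery were set beside the mean of the 30. Oxidative phosphorylation subunits (29 measured) had r = 0.454 and rho = 0.417 between the means (0.537, 0.354 and 0.431 in sets C, B and A). Their closest single genes were Ndufs8 at 0.553 and Ndufb7 at 0.488, both subunits of complex I. Partners and assembly factors of the mitochondrial ribosome (10 of 28 measured) had r = 0.385, led by the assembly factor Rbfa at 0.513 and Mpv17l2 at 0.336. Mitochondrial tRNA synthetases (6 of 17) had r = 0.223, with Aars2 at 0.358 and Lars2 at 0.126. Mitochondrial translation factors, listed together with related genes such as Letm1 (5 of 17, called translation factors below), had r = -0.212. The highest were Letm1 at -0.00869 and the elongation factor gene Gfm1 at -0.0115. Genes of mitochondrial transcription and DNA (13 of 15) had r = 0.0356, with the polymerase gene Polg at 0.259 and the nuclear receptor gene Esrra at 0.257. With the first principal component taken out, r was 0.397 for the oxidative phosphorylation subunits, 0.338 for the ribosome partners, 0.0724 for the synthetases, 0.0195 for the translation factors and 0.00281 for transcription and DNA. The negative r of the translation factors was thus lost.

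Cytosolic ribosomal proteins (38 measured) had r = 0.223, with Fau at 0.454 and Rpl41 at 0.396. Proteasome subunits (29) had r = 0.0163, although the immunoproteasome gene Psmb10 reached 0.583, above any gene of the mitochondrial lists, and Psmd3 0.327. Without the first principal component r was 0.229 for the cytosolic ribosomal proteins and 0.266 for the proteasome. Among cell type markers, microglial markers (7) had r = 0.327 (0.284, 0.415 and 0.329 in sets C, B and A, and 0.229 without that component), with C1qa at 0.379 and C1qb at 0.279. The other 7 marker lists lay between -0.162 for astrocytes and 0.134 for choroid plexus. Their highest genes were Mag at 0.344, Tubb3 at 0.317, Acsbg1 at 0.283, Flt1 at 0.28 and Aqp1 at 0.271. The second genes were Sox10 at 0.162, Nefm at -0.101, Slc1a2 at 0.0419, Cldn5 at 0.146 and Folr1 at 0.179. Red cell genes gave Hba-a1 at 0.0711 and Alas2 at 0.0455, and pituitary genes Prl at 0.0369 and Cga at -0.00371. The part of microglial RNA in the shared variation of the ribosomal genes was not tested.

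In the fit on Mrpl12, 20 of the 29 oxidative phosphorylation genes had a positive and 5 a negative slope, while 42.4% of all probes were called positive and 29.8% negative. In the fit on Mrps9, 5 were positive and 17 negative, beside 28.9% and 38.0%. The counts were 16 and 6 on Mrps12, beside 40.2% and 30.6%, and 18 and 5 on Mrps2, beside 36.7% and 33.2%. They were 6 and 15 on Mrpl48, beside 25.1% and 32.0%, and 5 and 10 on Mrpl27, beside 17.0% and 17.5%. On Mrps26 they were 8 and 3, beside 17.6% and 15.9%. Mrpl12 and Mrps9 had r = -0.862 and 0.799 with the first principal component, and these counts were not made with it as a covariate. Of the 5 translation factors, 4 were called higher in set C than in set A (median 0.0436) and none lower, beside 28.2% and 33.4% of all probes. Of the 10 ribosome partners, 3 were higher and 6 lower (median -0.0161), beside the same shares.

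Mrpl27, Mrps26 and Mrpl48 stood apart by following their own chromosome. For each of the 30, the 20 named genes with the largest absolute r were counted by chromosome. For Mrpl27, on chromosome 11, 19 of the 20 lay on chromosome 11. For Mrps26, on chromosome 2, 18 of 20 did, and for Mrpl48, on chromosome 7, 14 of 20 did. None of the other 27 genes had more than 4. Of all named genes 3.55% had at least 10 of 20 on their own chromosome, a limit chosen after these counts were seen, and of the ribosomal genes 10% did. The counts for Mrpl27, Mrps26 and Mrpl48 were 19, 18 and 19 in set C, 19, 17 and 14 in set B and 18, 17 and 16 in set A. With the array set means taken out they were 19, 19 and 17.

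**Figure D4:**
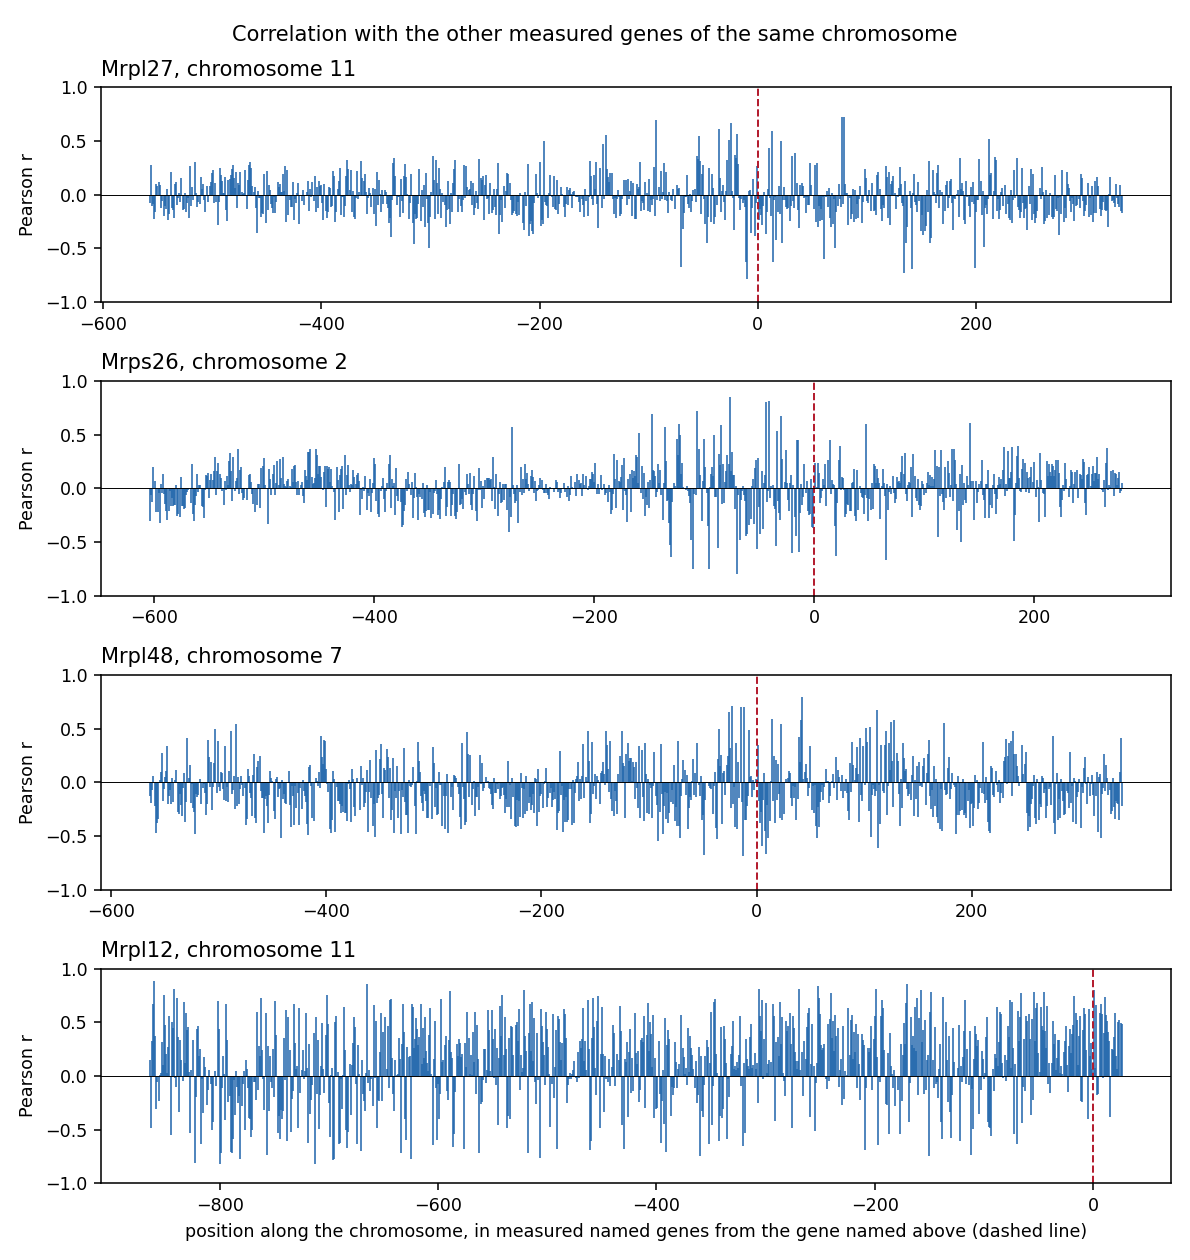
Pearson's r over 292 mice of Mrpl27, Mrps26, Mrpl48 and Mrpl12 with each other measured gene of the same chromosome; the x axis counts measured named genes from the gene itself (dashed line). For Mrpl27 and Mrpl48 the tallest bars stand on both sides of the gene and for Mrps26 mostly to its left, among many short ones, with the largest at -0.79, 0.79 and 0.848, while for Mrpl12 tall bars run along the whole chromosome.

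Mrpl27 was most alike to Nme1, a nucleoside diphosphate kinase gene that lies 10 measured genes away, with r = -0.79 and rho = -0.78. Mice with high Mrpl27 had low Nme1, and r was -0.863, -0.793 and -0.763 in sets C, B and A. Then came Mpp3 (r = -0.727, 134 measured genes away), Smarce1 (0.727, 77 away) and Krt12 (0.72, 79 away), all on chromosome 11. Smarce1 encodes a chromatin remodelling subunit and Krt12 a corneal keratin. The exception was Sav1, a scaffold gene of the Hippo pathway on chromosome 12, with r = -0.738. The 10 measured genes on each side of Mrpl27 had a median absolute r of 0.154, against 0.102 for genes of other chromosomes, so most near neighbours did not follow it closely.

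Mrps26 was most alike to Ltk, a receptor tyrosine kinase gene 77 measured genes away on chromosome 2, with r = 0.848 (0.858, 0.838 and 0.84 in sets C, B and A). It also followed Slc24a5, an ion exchanger gene of pigment cells, with r = 0.819 (41 away) and Spata5l1 with r = 0.806 (44 away). It opposed Pla2g4e, a phospholipase gene, with r = -0.801 (70 away) and Scg5, the chaperone gene of a prohormone convertase, with r = -0.754 (110 away). All of these lie on 1 side of it. The largest absolute r among its 10 nearest genes on each side was 0.365. Mrps26 has the fourth largest SD, so its partners are named here after their values were seen.

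Mrpl48 was most alike to Trim30d, a tripartite motif gene 42 measured genes away on chromosome 7, with r = 0.79 (0.86, 0.846 and 0.845 in sets C, B and A). Myo7a, an unconventional myosin gene, had r = 0.71 (23 away), Map6, a microtubule gene, 0.705 (15 away) and Gdpd5 -0.687 (13 away). Rps3, a protein gene of the cytosolic small subunit, had r = 0.701 overall and 0.847 in set C (12 away). These values are from the probe that stands for Mrpl48. With its other probes r was -0.476 and -0.489 for Trim30d, -0.554 and -0.578 for Myo7a and -0.594 and -0.616 for Rps3. For Map6 and Gdpd5 it lay between 0.00898 and 0.0962 with those probes.

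**Figure D5:**
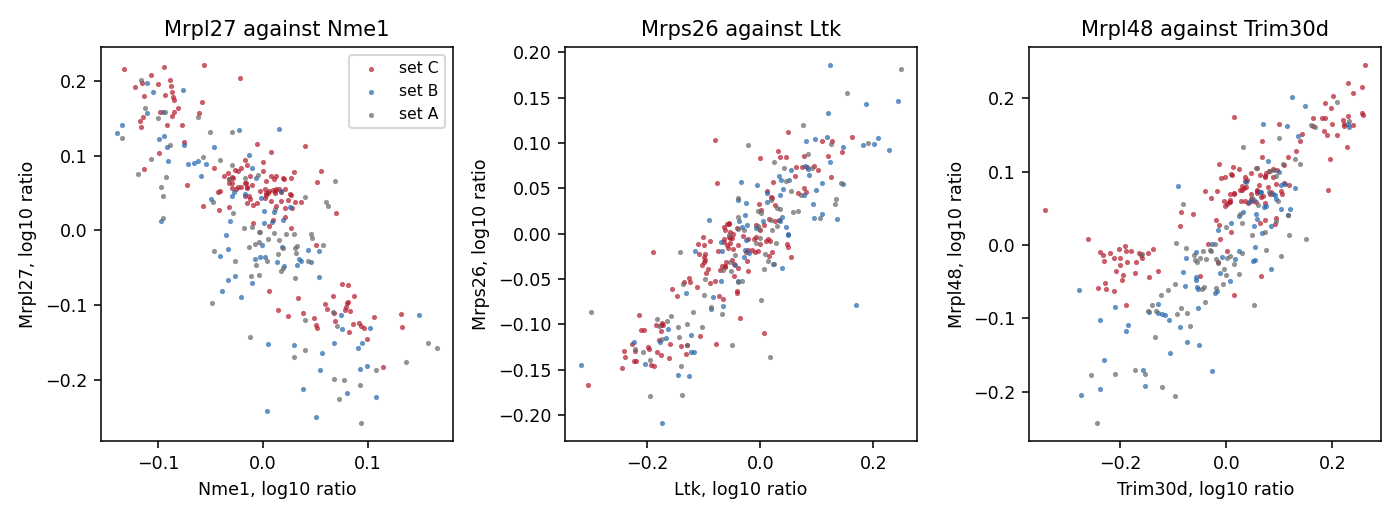
Each mouse's log10 ratio of Mrpl27 against Nme1, Mrps26 against Ltk and Mrpl48 against Trim30d, coloured by array set (C, B, A). Mrpl27 falls as Nme1 rises (r = -0.79), while Mrps26 rises with Ltk (r = 0.848) and Mrpl48 with Trim30d (r = 0.79), and in set C the points of Mrpl27 and Mrpl48 gather in clusters. The probe with the largest SD is drawn, and the other probes of Mrpl48 had negative r with Trim30d.

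The values of these genes fell into discrete levels within set C. Mixtures of normal curves of equal width were fitted to every probe. To be called, a fit had to gain more than 10 in the Bayesian information criterion over 1 curve, with clusters over 3 of their own SDs apart and none under 5% of mice. In set C alone 4 of the 30 genes were called, beside 6.47% of all probes, namely Mrpl27, Mrps26, Mrpl48 and Mrps2. Mrpl27 had 3 clusters at -0.112, 0.0565 and 0.176, which held 22%, 59.1% and 18.9% of mice, with an SD of 0.0246 within a cluster. Mrps26 had clusters at -0.12, -0.0186 and 0.0727 with 23.6%, 56.9% and 19.5% of mice. Mrpl48 had clusters at -0.0231, 0.0761 and 0.173 with 27.7%, 52.3% and 20% of mice. Mrps2 had 2 clusters at -0.00865 and 0.0723 with 85.7% and 14.3%. These are the probes with the largest SD. In set C the second probe of Mrpl27 was called as well, and the third was not. The other 2 probes of Mrpl48 were not called.

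Relations of these genes with others within a cluster were not tested. Over all 292 mice only Mrps9 was called, beside 7.07% of all probes. It had 2 clusters at -0.0615 and 0.0446 with 19.7% and 80.3% of mice. No gene was called within set B or set A alone, where 2.57% and 2.04% of all probes were. With clusters only 2 SDs apart 6 genes were called over all mice, beside 16.3% of probes, and with 4 SDs or unequal widths none was, beside 0.471% and 1.31%. With array set means taken out 1 was called (Mrpl27), beside 5.10%, and with arrays scaled to 1 SD 2 were (Mrpl39 and Mrps9), beside 4.71%. The 5 genes most alike to Mrps9 were Rpl3 (r = 0.861), Atp6v1e1 (0.851), Cct2 (0.85), Ckap5 (0.849) and Rad50 (0.844). They encode a cytosolic ribosomal protein, a proton pump subunit, a chaperonin subunit, a microtubule polymerase and a DNA repair protein, each on another chromosome. In set C their r with Mrps9 was between 0.0508 and 0.367, against 0.835 to 0.906 in sets B and A.

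Mrpl12 gave a contrast to the genes that followed a chromosome. Its 5 most alike genes were Fau (r = 0.917), Zdhhc12 (0.901), Tle5 (0.899), Nfkbil1 (0.899) and Edf1 (0.895). None lies on chromosome 11 with Mrpl12. They encode a fusion of a ubiquitin-like and a ribosomal protein, a palmitoyltransferase, a corepressor, a protein named for its likeness to NF-kappa-B inhibitors and a coactivator. In set C alone r was 0.889, 0.793, 0.81, 0.788 and 0.813 in that order, so the likeness was present within that set. Mrpl12 itself had r = -0.862 with the first principal component over all probes. For these 5 genes r without that component is not given here, so a likeness particular to them is not read from these values.

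Different probes of a gene did not always follow each other. The 2 probes of Mrpl23 had r = 0.984. Of the 3 of Mrpl27, the first and second had r = 0.97, and the third had r = 0.00661 and -0.00684 with them. The second probe of Mrpl27 kept to chromosome 11 as well (18 of 20, r = -0.695 with Nme1), while the third did not (3 of 20, r = -0.037 with Nme1). For Mrpl48 the probe that stands for the gene had r = -0.266 and -0.281 with the other 2, which had r = 0.975 with each other. In set C these were -0.807 and -0.822. All 3 probes followed chromosome 7, but for some genes with opposite signs. Trim30d had r = 0.79 with the first and -0.476 and -0.489 with the others, and Rps3 had 0.701, -0.594 and -0.616. Map6 had 0.705, 0.023 and 0.00898, and Gdpd5 -0.687, 0.0949 and 0.0962, so both lay near 0 with the others over all mice. The sign or the size of these correlations of Mrpl48 therefore depends on the probe. The other 2 probes averaged 0.0478 and 0.0469 in set C, -0.00943 and -0.00907 in set B and 0.00686 and 0.00578 in set A, where the first averaged -0.011. All 3 were higher in set C than in sets B and A, by different amounts. The 2 probes of Mrps33 had r = 0.141.

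Some of the genes share a start region with a gene that runs the opposite way. A head-to-head partner within 1000 bases was found for 11 genes in the GRCm38.p6 gene table, and 6 partners were measured. Mrps12 and Sars2, the mitochondrial seryl-tRNA synthetase gene, had r = 0.398 (limma, adjusted p = 8.59e-12 in the fit on Mrps12). It was 0.327, 0.508 and 0.685 in sets C, B and A. Mrpl18 and the chaperonin gene Tcp1 had r = 0.364 (adjusted p = 1.4e-09), with 0.15, 0.421 and 0.571 in the 3 sets. Mrpl48 and Rab6a, a Golgi GTPase gene, had r = 0.345 (adjusted p = 6.97e-09), with 0.406, 0.534 and 0.486. That value is from the probe that stands for Mrpl48, with which its other probes had r = -0.266 and -0.281. The sign for Rab6a with those probes was not looked at. In each pair the 2 genes are also neighbours, so a shared start region and being inherited together cannot be told apart. Mrpl32 and the proteasome gene Psma2 had r = -0.145 (adjusted p = 0.0236), and it was 0.0292 in set C. Mrpl40 and Hira had r = -0.0654 (adjusted p = 0.344), and Mrpl21 and Ighmbp2 r = -0.057 (adjusted p = 0.459). Of all probes 70.8% were called in the fit on Mrps12, 54.4% on Mrpl18, 57.1% on Mrpl48, 60.3% on Mrpl32, 57.0% on Mrpl40 and 43.8% on Mrpl21. With the first principal component taken out r was 0.235 for Mrps12 and Sars2, 0.312 for Mrpl18 and Tcp1 and 0.325 for Mrpl48 and Rab6a. It was 0.0815 for Mrpl32 and Psma2, -0.0743 for Mrpl40 and Hira and 0.00563 for Mrpl21 and Ighmbp2. The 5 partners not measured were Eme1, Cyb5rl, Mrps11, 4930473A02Rik and Zfp661.

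Promoter sequences are shown for 5 genes. Mrps12, Mrpl34 and Mrpl28 form the 2 pairs with the highest r over all mice, and Mrps26 and Mrpl48 are among those that followed a chromosome. Each runs 5′ to 3′ from 250 bases before to 50 bases after the start of the gene (RefSeq, GRCm38.p6). They lie at chr7:28741772-28742071 on the minus strand, chr8:71464676-71464975 on the plus strand, chr17:26123253-26123552 on the plus strand, chr2:130563507-130563806 on the plus strand and chr7:100608252-100608551 on the minus strand, in the order printed. Capitals mark a match, on either strand, to 1 of 5 motifs. These were the consensus of NRF1, an activator of respiratory genes, and that of ETS factors, spelled CCGGAAG. The motif of YY1, a zinc finger protein that both activates and represses, was spelled AAGATGGCG. The GC box, which Sp1 is known to bind in promoters of many widely expressed genes, was spelled GGGCGG. The TATA box, which the general transcription machinery reads, was spelled TATAAA. Mrpl28 holds none of them in this window.
Mrps12: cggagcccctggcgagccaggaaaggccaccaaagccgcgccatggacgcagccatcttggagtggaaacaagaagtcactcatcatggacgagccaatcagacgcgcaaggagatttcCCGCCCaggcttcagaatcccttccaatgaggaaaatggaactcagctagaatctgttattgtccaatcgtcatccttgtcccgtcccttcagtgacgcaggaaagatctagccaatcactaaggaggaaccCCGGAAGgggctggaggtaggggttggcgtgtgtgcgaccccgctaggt
Mrpl34: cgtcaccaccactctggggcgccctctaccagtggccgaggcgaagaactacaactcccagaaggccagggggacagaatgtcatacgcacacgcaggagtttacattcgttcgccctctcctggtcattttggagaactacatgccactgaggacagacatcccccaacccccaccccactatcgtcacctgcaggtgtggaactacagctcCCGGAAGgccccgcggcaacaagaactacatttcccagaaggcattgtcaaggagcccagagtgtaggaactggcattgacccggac
Mrpl28: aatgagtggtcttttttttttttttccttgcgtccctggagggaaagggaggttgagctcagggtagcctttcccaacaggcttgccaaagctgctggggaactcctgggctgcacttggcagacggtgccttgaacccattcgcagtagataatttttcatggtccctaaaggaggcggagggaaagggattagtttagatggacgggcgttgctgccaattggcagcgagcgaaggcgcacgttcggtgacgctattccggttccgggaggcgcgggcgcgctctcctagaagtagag
Mrps26: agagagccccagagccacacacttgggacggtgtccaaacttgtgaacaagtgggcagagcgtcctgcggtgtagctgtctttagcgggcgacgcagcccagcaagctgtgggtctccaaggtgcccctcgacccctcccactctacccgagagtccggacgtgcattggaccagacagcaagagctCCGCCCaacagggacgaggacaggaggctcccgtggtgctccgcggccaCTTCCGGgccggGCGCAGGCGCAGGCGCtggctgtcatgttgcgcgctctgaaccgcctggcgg
Mrpl48: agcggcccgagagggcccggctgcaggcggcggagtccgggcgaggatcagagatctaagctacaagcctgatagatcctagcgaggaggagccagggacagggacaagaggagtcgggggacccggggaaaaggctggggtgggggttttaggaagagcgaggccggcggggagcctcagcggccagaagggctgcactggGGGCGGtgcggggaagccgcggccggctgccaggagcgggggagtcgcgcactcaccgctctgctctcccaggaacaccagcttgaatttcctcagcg

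In Mrps26 a pair of overlapping NRF1 matches begins 2 bases before the start of the gene, and an ETS match lies just before it. NRF1 and the ETS factor GABP are known activators of nuclear genes for mitochondrial proteins. Of the 25 genes with a promoter in the table, 6 (24%) held the NRF1 motif, beside 7.62% of 8607 named genes. They were Mrpl12, Mrpl32, Mrpl39, Mrps21, Mrps26 and Mrps9. The ETS motif stood in 8 (32%), beside 12.5%, in Mrpl18, Mrpl21, Mrpl27, Mrpl34, Mrps12, Mrps21, Mrps26 and Mrps33. The YY1 motif stood in 2 (8%), beside 2.24%, the GC box in 13 (52%), beside 54.5%, and TATA in 2 (8%), beside 10.8%. A match is a description of letters and not a bound site. Of the genes with an NRF1 match, Mrpl39, Mrps9 and Mrpl32 were called higher in C minus A, Mrpl12 and Mrps21 lower, and Mrps26 was not called. Of those with an ETS match, Mrpl21 and Mrpl27 were higher, Mrpl34, Mrps12 and Mrps21 lower, and Mrpl18, Mrps26 and Mrps33 were not called. Of all probes 28.2% were higher and 33.4% lower in that contrast. The part of these motifs in the differences was not tested.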

How the data were processed

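Brain RNA of 292 mice was measured on 2-colour arrays. The authors deposited 1 log10 ratio per probe and array; how images were read, corrected and normalized is not stated per the labels, and scale and direction are inferred from the values and dyes. Every column matched a sample (0 did not). Of 23574 probes, the 25 missing on more than 5% of arrays were left out and 252 gaps took the mean of their probe. Genes were named through the platform annotation and the GRCm38.p6 gene table. Tests used limma 3.58.1 in R 4.3.3 over all 23549 probes with Benjamini-Hochberg adjustment, and mixtures used mclust 6.1.1. The steps for contrasts, mixtures and chromosome counts were run on simulated data made of independent noise with planted changes. Those data held no component shared over all probes, unlike the real arrays. They check the steps and not the calls made here. Array sets, members and lists were chosen with earlier results of these data known. The genes named were the largest and smallest in SD, in r with the other members and in each contrast, clustered genes, probes that disagree, extreme pairs, nearest partners, head-to-head partners and 2 genes a list. Each mouse is its own animal. Correlations are descriptions; p-values beside head-to-head pairs come from the limma fit on the member. Alternatives changed scaling, weights, probe choice, filter, sets and components.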

Additional observations from a re-analysis of the deposited data

How the results depend on the processing

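Of the alternatives over all results, 473 were labelled the same, 97 weaker, 3 stronger, 33 reversed and 47 moved. For the test of a named gene, same means that sign and call were kept. Weaker means there that the call was lost, and reversed that the sign turned, whether or not the turned value was called. For a count of genes, same means close to the main count, and weaker or stronger means clearly smaller or larger. For r and SD, same means a change smaller than the SD between the array sets, and moved a larger one. The causes were not tested. With a 1.2-fold threshold 0 genes were called against the pool, with the mouse number or between forms, and 1 in C minus A and in C minus B. Against the pool 0 were called in set B (which is form 2) and 0 in set A. With the mouse number 13 were called in set C, 4 in set B, 0 in set A and 8 with the set as a covariate. Negative slopes with the first principal component as a covariate numbered 5 on Mrpl12, 6 on Mrps12 and 5 on Mrps9. Clustered genes numbered 6 at 2 SDs, 0 at 4 SDs, 0 with unequal variances, 2 after scaling, 4 in set C, 0 in set B and 0 in set A.

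The median pairwise r was 0.0223 in set B, 0.0351 in set A, 0.0215 with set means taken out, 0.0257 with arrays centred, 0.0258 with arrays scaled, 0.0389 without the tenth of arrays with the largest SD and 0.0426 with the first principal component taken out. The median SD was 0.0355 in set C, 0.0416 in set B, 0.0407 in set A and 0.0403 with set means taken out.

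Reversals are listed for the 10 genes named in each comparison only, and other genes reversed too. Against the pool, set B (form 2) gave reversed means of -0.00127 for Mrpl21, -0.00379 for Mrps9, -0.00756 for Mrpl48 and -1.32e-05 for Mrpl39. Set A gave 0.000867 for Mrpl28, 0.00471 for Mrpl34, 0.00167 for Mrps12, -0.00166 for Mrps9, -0.011 for Mrpl48 and -0.00329 for Mrpl39. None of these means in set B or set A was called, so an opposite difference from the pool is not read from them. Slopes per 100 mouse numbers reversed in set C for Mrps9 (-0.00646) and Mrpl1 (-0.000303). In set B they reversed for Mrpl12 (0.0511), Mrpl28 (0.00242), Mrps12 (0.00523), Mrps34 (0.0242), Mrps9 (-0.0035), Mrpl48 (-0.0119) and Mrpl39 (-0.0212). In set A they reversed for Mrpl12 (0.0244), Mrpl28 (0.000779), Mrps34 (0.0158), Mrpl48 (-0.00769) and Mrpl39 (-0.0244). With the set as a covariate they reversed for Mrpl12 (0.0187), Mrps34 (0.0113), Mrps9 (-0.00352), Mrpl48 (-0.0033) and Mrpl39 (-0.00148). No paired analysis was possible because all mice form 1 group. No intensities were used here, so the signal over background is unknown.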
